A study of Homo sapiens with 6 samples.

Results

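The miRNAs hsa-miR-4521, hsa-miR-7851-3p and hsa-miR-629-5p were followed through microRNA arrays of HuCCT1 cells, an established human cholangiocarcinoma (CCA) cell line, incubated with or without TGF-β. They are 3 of the 2555 human miRNAs with a probe on the array and 3 of the 323 that were expressed in these cells. Each was chosen by its measured values in the comparison of control and TGF-β arrays, so the levels and differences given here describe these arrays and are not a test of them. MiR-4521 was chosen for the smallest spread relative to its difference. MiR-7851-3p was chosen for the largest rise among miRNAs detected on every array with no overlap of the groups, and miR-629-5p for its adjusted p when 1 TGF-β array was left out. The data came from 2 groups of 3 arrays, control cells at 0 ng/ml and treated cells at 10 ng/ml TGF-β, all at 72 h of incubation. Both groups were the same line with no genetic change named in the labels, and neither the labels nor the methods say whether the 3 samples of a group came from separate cultures, so the spread between arrays may be technical.

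A miRNA is an RNA of about the length printed here that is cut from a hairpin precursor and loaded into an Argonaute protein, where it guides the repression of mRNAs. Pairing of the target with the seed, bases 2 to 8 of the miRNA, largely decides which mRNAs are bound. TGF-β signals through Smad proteins and is a known inducer of epithelial-mesenchymal transition (EMT) in epithelial tumors. Members of the miR-181, miR-23 and miR-21 families are among the miRNAs known to rise with TGF-β in other epithelial cells. MiR-629 is known to target TRIM33, a ubiquitin ligase that restrains Smad signaling, and FOXM1, a transcription factor of proliferating cells, is among the targets known for miR-4521.

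The mature sequences, from RefSeq, are shown with the seed in capitals because no other array miRNA with a RefSeq sequence shared the seed of a member. The other arm of the miR-629 hairpin, miR-629-3p, is printed with them since it has its own probe on the array.
hsa-miR-4521: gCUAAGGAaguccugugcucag
hsa-miR-7851-3p: uACCUGGGagacugagguugga
hsa-miR-629-5p: uGGGUUUAcguugggagaacu
hsa-miR-629-3p: gUUCUCCCaacguaagcccagc

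In the GRCh38.p14 annotation, miR-4521 lies at chr17:8186948-8186969 on the plus strand, outside the span of any other listed gene. MiR-7851-3p lies at chr12:42323740-42323761 on the minus strand, within the span of ZCRB1, which encodes a protein of the minor spliceosome. MiR-629-5p lies at chr15:70079427-70079447 and miR-629-3p at chr15:70079387-70079408, both on the minus strand and within the span of TLE3, a transcriptional corepressor of the Groucho family. Whether these positions are exonic or intronic was not analysed here. Of the 2578 human miRNA names on the array, 2263 had a mature sequence in the RefSeq table. None of these carried the same seed as miR-4521, miR-7851-3p or miR-629-5p, and miR-619-3p, which was not detected, shared bases 2 to 7 with miR-7851-3p. The longest run of bases shared with another miRNA of the array was 10 for miR-4521 (miR-1910-5p), 11 for miR-7851-3p (miR-622) and 9 for miR-629-5p (miR-3115), and none of these 3 other miRNAs was detected on any array. The arms of miR-629 are complementary over a run of 15 bases, as the strands of 1 hairpin are. The G and C content was 54.5% for miR-4521 and for miR-7851-3p and 47.6% for miR-629-5p, against a median of 61.1% over the 279 expressed miRNAs with a sequence. Across these 279 miRNAs, which are not independent replicates, the log2 change with TGF-β had a Pearson correlation of -0.23 with G and C content.

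A probe was taken as detected when its brightness exceeded the mean of the 229 blank spots of its array by more than 2 SD. Between 327 and 464 miRNAs per array were detected, and the mean brightness of the blank spots ran from 29.5 to 54.8 in the controls and from 42.5 to 82.3 with TGF-β. These ranges overlapped (2-sided exact permutation test, p = 0.20, adjusted p = 0.50 over 5 comparisons, where 0.10 is the smallest p that these arrays allow). The array names carry 1 of 2 codes, shared by the 3 controls and TGF-β array 1 in 1 case and by the other 2 treated samples in the other. The code is called chip here, although neither the labels nor the methods say what it marks. For the epithelial label, all 5 miR-200 family members were expressed, whereas 0 of 2 hepatocyte, 0 of 5 stromal and 0 of 6 blood miRNAs were. Of 3 biliary and gut miRNAs, miR-192-5p was expressed, and miR-194-5p and miR-215-5p were not detected on any array. The signals below are the brightness above the mean of the blank spots, scaled so that the median of the 292 miRNAs detected on all 6 arrays was 25 on each. A signal under the detection limit took the lowest detected value of its array, and expressed means detected throughout either group.

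All 3 miRNAs were dim. On the scanner's own scale, before subtraction and scaling, the spot of miR-4521 read 49.1, 85.1 and 44.8 in controls 1, 2 and 3 and 144, 143 and 71.8 in TGF-β samples 1, 2 and 3. Measured in SD of the blank spots, it lay 4.44 to 13.6 above the blank mean, so miR-4521 was detected on all 6 arrays. The spot of miR-7851-3p read 36.3, 75.4 and 35.4 in the controls and 121, 119 and 58.1 with TGF-β. On the control arrays it was only 3.03 to 3.31 SD above the blank mean, just past the limit, and with TGF-β 3.90 to 8.78 SD. The spot of miR-629-5p read 40.7, 62.2 and 38.1 in the controls and 136, 148 and 55.8 with TGF-β. It was 1.09 SD above the blank mean on control array 2, where it was not detected, and 3.33 to 14.7 SD on the other 5 arrays. MiR-629-5p therefore counted as expressed through its TGF-β arrays, the group in which it was brighter, and its mean in the controls includes 1 array at the lowest detected signal.

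**Figure D1:**
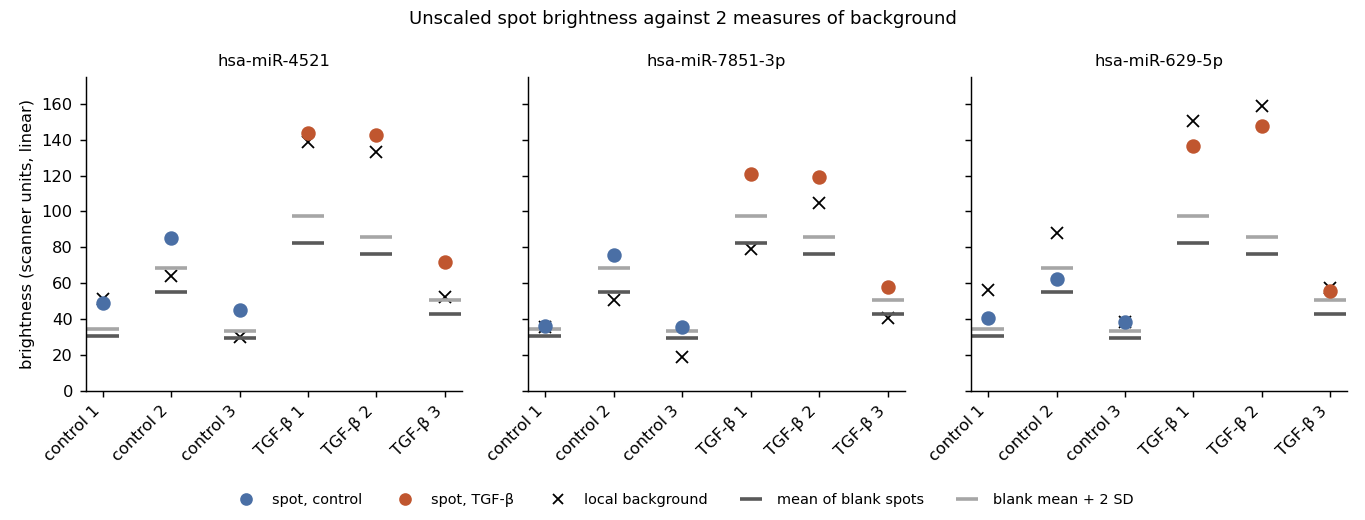
Spot brightness (y axis, scanner units on a linear scale) of the 3 miRNAs on each of the 6 arrays (x axis), with the local background around the spot (crosses), the mean of the blank spots (dark dashes) and that mean plus 2 SD (light dashes). The spots of miR-629-5p lie below their local background on all 6 arrays, and those of miR-7851-3p in the controls lie close to the detection limit.

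MiR-4521 had a scaled signal of 9.35, 9.55 and 8.94 in controls 1, 2 and 3 and of 14.8, 14.2 and 14.2 in TGF-β samples 1, 2 and 3. Every TGF-β array was above every control array, and the arrays of a group were nearly level. The means were 9.28 ± 0.31 (SD, n = 3) and 14.4 ± 0.39 (SD, n = 3), a ratio of 1.55 and a log2 change of 0.63 (standard error 0.17). Its pooled SD within groups, 0.044 on the log2 scale, was the smallest of the 323 expressed miRNAs. The spread was 0.069 of the difference, and the next in that ranking was miR-181a-5p at 0.13. Between arrays of the same replicate number the log2 difference was 0.67, 0.57 and 0.66.

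MiR-7851-3p was at 2.84, 6.51 and 3.45 in the controls and at 9.26, 9.17 and 7.51 with TGF-β. All TGF-β arrays were above all controls, but control array 2 stood close to TGF-β array 3, whose signal was 1.15 times as high. The means were 4.27 ± 1.97 (SD, n = 3) and 8.65 ± 0.98 (SD, n = 3), a ratio of 2.03 and a log2 change of 1.11 (standard error 0.31). In the ranking that chose it, the next miRNA was miR-193b-3p, with a log2 change of 0.80. By replicate number the log2 differences of miR-7851-3p were 1.71, 0.49 and 1.12, so that the pair of replicate 2, with the bright control, gave the smallest.

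MiR-629-5p was at 5.06, 4.31 and 5.01 in the controls, with the second value at the lowest detected signal, and at 13.0, 15.3 and 6.42 with TGF-β. TGF-β arrays 1 and 2 were far above the controls, while TGF-β array 3 was 1.27 times the highest control. The means were 4.79 ± 0.42 (SD, n = 3) and 11.6 ± 4.62 (SD, n = 3), a ratio of 2.42. The log2 change of 1.18 (standard error 0.32) was the largest of all 323 expressed miRNAs. With its own subtracted signal in place of the lowest detected one, control array 2 was at 2.34 and the log2 change of miR-629-5p was 1.48. By replicate number the log2 differences were 1.37, 1.83 and 0.36.

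**Figure D2:**
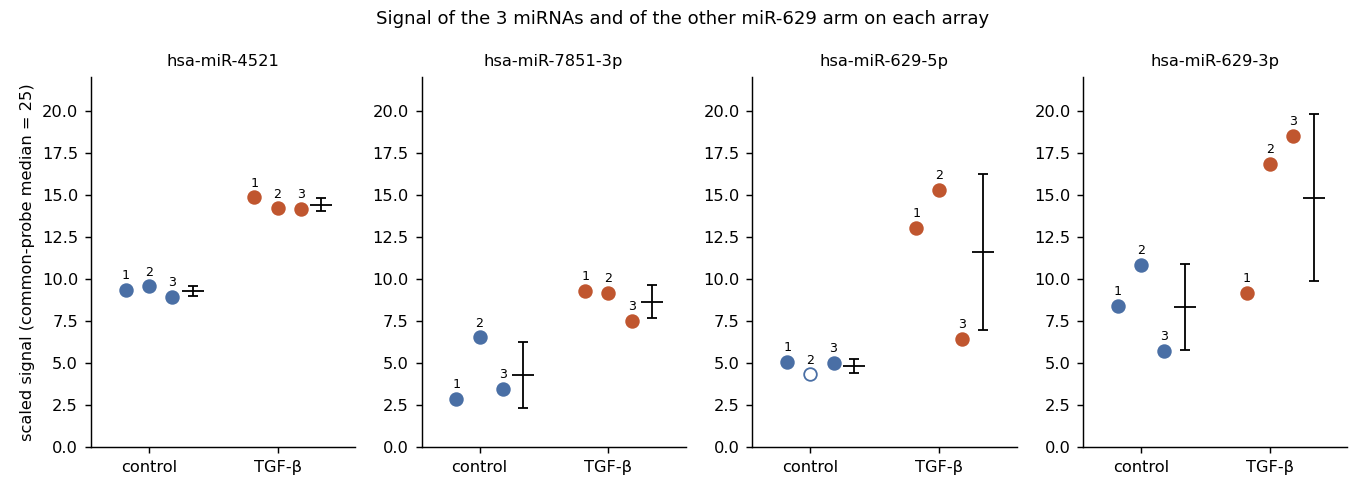
Scaled signal (y axis, median of the common miRNAs set to 25) of miR-4521, miR-7851-3p, miR-629-5p and miR-629-3p on the control and TGF-β arrays, numbered by replicate. Bars give the mean ± SD of 3 arrays and the open circle is a signal below detection. MiR-4521 has the tightest groups, and TGF-β array 3 of miR-629-5p, at 6.42, lies near the controls.

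The members were picked from 323 expressed miRNAs, and the counts over all of them give the scale for these differences. In limma, 0 of the 323 passed an adjusted p of 0.05 (0% called), while the unadjusted p was under 0.05 for 21, and 15 of those were higher with TGF-β. That count was 11 to 41 with 1 array left out (11 without control array 3 or TGF-β array 2, 12 without control array 1, 41 without TGF-β array 3), 7 under scaling by each array's detected miRNAs and 9 in the authors' values. The 3 members shared the smallest adjusted p of the table, 0.43, with 3 other miRNAs. Groups without overlap and higher with TGF-β were found for 23 of 323 miRNAs (7.12%), and a ratio above 1.5 for 15 (4.64%), and the 3 members are in both counts. Since the members were chosen on this comparison, nothing is read from those 3. The median log2 change of all expressed miRNAs was 0.01. Without TGF-β array 3, miR-629-5p reached an adjusted p of 0.039 in limma, as 1 of 339 miRNAs (0.295%), with a log2 change of 1.52. The next smallest adjusted p in that fit was 0.074, for miR-125a-3p, and those of miR-4521 and miR-7851-3p were 0.22 and 0.25.

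**Figure D3:**
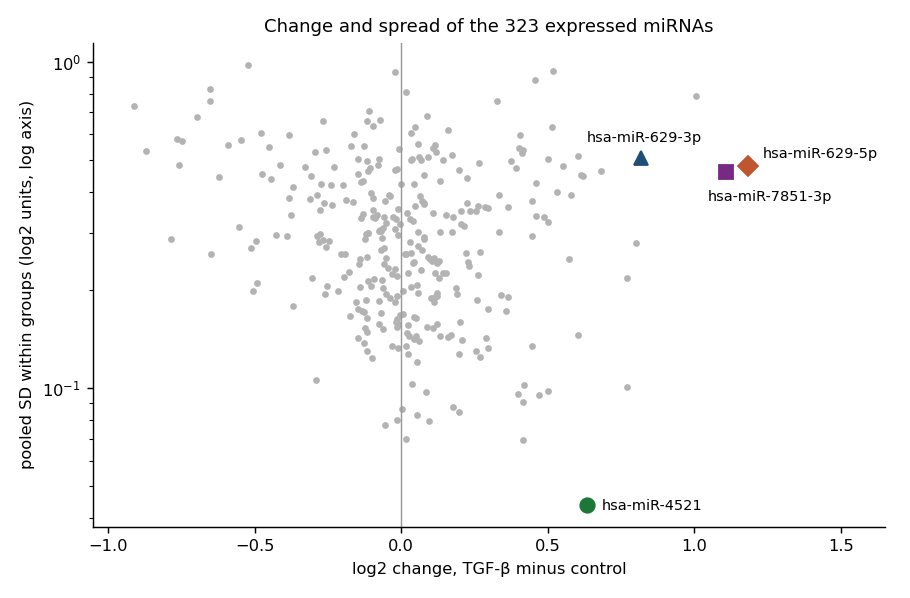
Log2 change with TGF-β (x axis) against the pooled SD within groups (y axis, log2 units on a log axis) for the 323 expressed miRNAs, with the 3 members and miR-629-3p marked. MiR-4521 is the point with the smallest spread, 0.044, and miR-629-5p and miR-7851-3p are the points farthest to the right, at 1.18 and 1.11.

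MiR-629-3p, the other arm of the miR-629 hairpin, was not used in the choice. Its scaled signal was 8.40, 10.8 and 5.73 in the controls and 9.17, 16.8 and 18.5 with TGF-β. The groups overlapped, as TGF-β array 1 lay below control array 2. The log2 change of miR-629-3p was 0.82 (standard error 0.33), and it did not pass adjustment over the expressed miRNAs (limma adjusted p = 0.69). Under the main scaling the arms differed in which arrays were bright. MiR-629-5p was highest on TGF-β arrays 1 and 2 and lowest of that group on TGF-β array 3. MiR-629-3p was highest on TGF-β array 3 and lowest of that group on TGF-β array 1. The array with the highest miR-629-3p depended on the scaling. In the authors' values miR-629-3p was at 12.3, 37.3 and 25.4 on TGF-β arrays 1, 2 and 3. Both arms were then highest on TGF-β array 2, and the lowest arrays still differed. In scanner brightness, both arms were highest on TGF-β array 2 and lowest on TGF-β array 3 within that group. On TGF-β array 1 the brightness of miR-629-3p less its local background was -36.1. No other arm of miR-4521 or miR-7851-3p was listed in the RefSeq table.

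The local background around each spot is a second measure of background in the scanner output, and it gave a different picture for these dim probes. At the spot of miR-629-5p it read 55.9, 88.2 and 38.4 in the controls and 150.3, 159 and 57.2 with TGF-β. It exceeded the spot itself on all 6 arrays, by 0.30 to 26.0 units, so that no signal was left after its subtraction, as for 3 of the 323 expressed miRNAs. None of the 5 spots next to miR-629-5p was above detection on any array. At the spot of miR-4521 the local background read 50.9, 64.2 and 29.9 in the controls and 139, 133 and 52.5 with TGF-β. The brightness of miR-4521 less its local background was -1.87, 20.9 and 14.9 in the controls and 5.05, 9.61 and 19.3 with TGF-β, which overlap. MiR-4521 had 4 to 5 detected spots among its 8 neighbors, the brightest being miR-6090 at 313 to 816. At the spot of miR-7851-3p, whose 5 neighbors were all below detection, the brightness less the local background was 0.56, 25.03 and 16.6 in the controls and 41.8, 14.5 and 17.5 with TGF-β, which overlap as well. Relative to the median local background of its array, the value at the spot was 1.80 ± 0.24 (SD, n = 3) in the controls and 2.26 ± 0.45 (SD, n = 3) with TGF-β for miR-4521. The same ratio was 2.23 ± 0.23 (SD, n = 3) and 2.54 ± 0.54 (SD, n = 3) for miR-629-5p, and 1.27 ± 0.26 (SD, n = 3) and 1.58 ± 0.27 (SD, n = 3) for miR-7851-3p. For each of the 3 miRNAs the groups overlapped in this ratio (2-sided exact permutation tests, p = 0.30 to 0.40, adjusted p = 0.50 over 5 comparisons). By replicate number, the ratio was higher with TGF-β in 3 of 3 pairs for miR-4521 and miR-7851-3p and in 2 of 3 for miR-629-5p, and the blank mean in 3 of 3 (2-sided exact paired permutation tests, p = 0.25, 0.25, 0.50 and 0.25, where 0.25 is the smallest p that 3 pairs allow). The part of the local background in the differences of the 3 miRNAs was not tested.

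When the local background was subtracted in place of the blank mean, the log2 change of miR-4521 was -0.90 over the 5 arrays with a signal above 0. The array left out was control 1, the lowest control, which raises the control mean. Over all 6 arrays the mean brightness of miR-4521 less its local background, unscaled, was 11.3 ± 11.8 (SD, n = 3) in the controls and 11.3 ± 7.28 (SD, n = 3) with TGF-β. Level unscaled means are not a level scaled signal. Without scaling, the median log2 change of all expressed miRNAs, above the blank mean, was 0.66, so level means lie below that general shift. The log2 change of miR-7851-3p was 1.44 over all 6 arrays, with overlapping groups for both miRNAs. With normexp, a model-based correction that uses the local background, and an offset of 50, the log2 changes were 0.0047 for miR-4521, 0.022 for miR-7851-3p and 0.13 for miR-629-5p. This setting differs from the main one in both the background and the offset, and their parts were not separated.

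The scaling moved the members together with all other miRNAs. When each array was scaled by the miRNAs detected on that array alone, the log2 change was 0.42 for miR-4521, 0.89 for miR-7851-3p and 0.97 for miR-629-5p, where the median of all expressed miRNAs was -0.20. Set against that median, each member had the same value under both scalings, 0.62 for miR-4521, 1.09 for miR-7851-3p and 1.17 for miR-629-5p. This holds by construction, since a scaling shifts all miRNAs of an array by the same log2 amount. Without any scaling the log2 changes were 1.28, 1.75 and 1.83 for miR-4521, miR-7851-3p and miR-629-5p, beside a median of 0.66 for all expressed miRNAs, and the groups of all 3 overlapped. Under the 75th percentile, centred ratios and quantile normalization, the groups of all 3 stayed apart. The log2 changes were then 0.52, 0.58 and 0.66 for miR-4521 and 0.99, 1.05 and 1.06 for miR-7851-3p. For miR-629-5p they were 1.07, 1.13 and 1.31. The first 2 of these settings use the same 292 miRNAs as the main scaling. Under the own-probe scaling, the arrays of miR-4521 were at 21.8, 12.02 and 14.3 in the controls and at 18.2, 28.7 and 17.1 with TGF-β, and the groups overlapped. The signal of miR-629-5p on TGF-β array 3 was then 7.77, below 11.8 on control array 1. MiR-7851-3p kept its groups apart under this scaling, at 5.51 to 8.19 in the controls and 9.10 to 18.5 with TGF-β, and was the only 1 of 323 miRNAs higher without overlap.

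The normalized values that the authors deposited set the median of the listed miRNAs of each array to 25 and leave undetected miRNAs empty. They are close in kind to the own-probe scaling, so the results under each are not separate checks. MiR-4521 was listed at 24.8, 14.1 and 16.2 in the controls and at 19.9, 31.4 and 19.4 with TGF-β. Control array 1 was above TGF-β arrays 1 and 3, and the means were 18.4 ± 5.67 (SD, n = 3) and 23.6 ± 6.79 (SD, n = 3). MiR-7851-3p was listed at 7.6, 9.7 and 6.2 in the controls and at 12.4, 20.3 and 10.3 with TGF-β. Its groups did not overlap, and it was the only such miRNA higher with TGF-β among 349 (0.287%), with a ratio of means of 1.83. MiR-629-5p was listed at 13.5 and 9.0 on control arrays 1 and 3, was not listed on control array 2, and was at 17.5, 33.9 and 8.8 with TGF-β. TGF-β array 3 was below both listed controls, and the ratio of the listed means was 1.78.

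**Figure D4:**
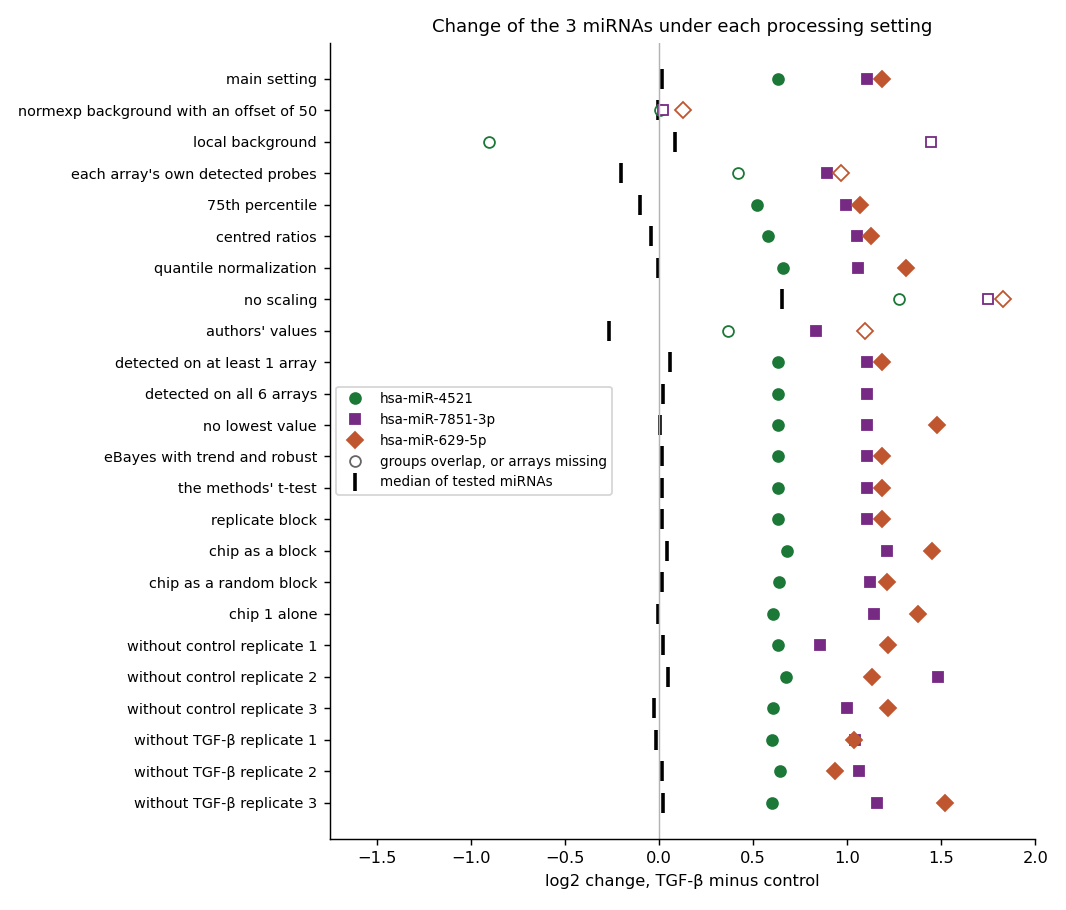
Log2 change with TGF-β (x axis) of miR-4521, miR-7851-3p and miR-629-5p under the main setting and each alternative (y axis), with the median of all miRNAs tested in that setting as a black bar. Open symbols mark settings in which the groups overlapped or an array had no value. The changes of miR-7851-3p and miR-629-5p lie above 0 wherever they could be computed, while miR-4521 is at -0.90 with the local background, where control 1 has no value.

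The code in the array names was confounded in part with the groups. Within the first code, TGF-β array 1 against the 3 controls, the log2 change was 0.61 for miR-4521, 1.14 for miR-7851-3p and 1.38 for miR-629-5p. The second code held TGF-β arrays only, so no comparison within it could be made. A fit with the code as a block rests on the same comparison of 1 treated array and gave 0.68, 1.21 and 1.45 with the scaling and filter of all 6 arrays. The part of what the code marks in these differences was not tested.

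Across the 6 arrays, the log2 signals of miR-4521 and miR-7851-3p had a Pearson correlation of 0.86, those of miR-4521 and miR-629-5p of 0.84, and those of miR-7851-3p and miR-629-5p of 0.71. These values share the 2 groups and the scaling and are given as a description. Among the miRNAs detected on all 6 arrays, those most like miR-4521 were miR-23a-3p (r = 0.97), miR-181a-5p (r = 0.97) and miR-28-5p (r = 0.96). Those most like miR-7851-3p were miR-193b-3p (r = 0.96), miR-222-3p (r = 0.96) and miR-23a-3p (r = 0.95). For miR-629-5p they were miR-10a-5p (r = 0.97), miR-3651 (r = 0.91) and the shared probe of miR-365a-3p and miR-365b-3p (r = 0.87). Their log2 changes ran from 0.26 for miR-10a-5p to 0.80 for miR-193b-3p. All 8 were higher with TGF-β without overlap (7.12% of all expressed miRNAs), which follows from a choice by likeness to miRNAs picked for their separation. Under the own-probe scaling 0 of the 8 were so, beside 1 of 323 miRNAs, and in the authors' values 0 of the 8, beside 1 of 349.

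From a list of 25 miRNAs known in TGF-β signaling and EMT, 24 were on the array and 20 were expressed. In limma, 0 of the 20 passed the adjusted p. Of the 20, 14 had a log2 change above 0 and 6 below, with a median of 0.13 against 0.01 over all expressed miRNAs. The list was not split by the direction known for each miRNA, so a change above 0 has no single meaning on it. Its 5 miR-200 family members had 3 changes above 0 and 2 below, and 2 of these 5 were higher without overlap. Groups without overlap and higher with TGF-β were found for 7 of the 20, against 7.12% of all expressed miRNAs, and for 0 of the 20 under the own-probe scaling or in the authors' values. In those 2 settings only 1 of 323 and 1 of 349 miRNAs were so, and a count of 0 is not particular to the list. The list was chosen with earlier results of these data known, so these counts are a description and not a test of the list. The log2 changes on the list ran from -0.65 to 0.77.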

How the data were processed

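The authors labelled total RNA with Cy5, hybridized it to a 3D-Gene Human miRNA Oligo chip and read it with the 3D-Gene Extraction software. They deposited the intensity of each spot as a pixel median with a local background, without normalization, and a second table of normalized intensity with the median set to 25 per array. Between 0 and 2 human probes per array carried a failed flag at 1 or more of 3 gains, none of them a member, and were treated as missing. Groups and replicate numbers come from the sample titles.

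The members, lists and alternatives were chosen with earlier results of these data known. Log2 signals of the 323 expressed miRNAs were compared with limma 3.58.1 under R 4.3.3 (lmFit and eBayes, without the replicate number), and p-values were adjusted over all 323 by Benjamini-Hochberg. The limma step was run on simulated data with independent noise and known changes. The simulation held no array-wide shifts in background or scaling, so it checks the computation and not the results given here. Single values were compared by exact permutation in scipy 1.17.1. Named besides the members are the other arm, sequence relatives, the next miRNA in each ranking and the 3 most alike by Pearson correlation.

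Deviations from group means of arrays with the same replicate number correlated by 0.12, 0.24 and 0.33. These values do not establish a pairing, as control array 1 and TGF-β array 2 correlated by 0.44, more than either did with its own number. The main fit left the number out, and the differences and paired tests by replicate number are given as a description. The labels do not say what the number marks. The number of arrays limits the precision.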

Additional observations from a re-analysis of the deposited data

How the results depend on the processing

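Of the alternatives, 6 for miR-4521 and miR-7851-3p and 4 for miR-629-5p repeat the main log2 change by construction. In the 17 others for each, it was above 0 in 16, 17 and 17, for members chosen as higher. The exception was -0.90 for miR-4521 with the local background, which leaves out control 1, the lowest control. With control 1 kept, its unscaled means above the local background showed no rise, at 11.3 in the controls and 11.3 with TGF-β. MiR-629-5p had no value with the local background or among miRNAs detected on all 6 arrays, and no member had a mean signal of at least 25. The log2 change of miR-4521, 0.63, passed adjustment in the methods' t-test (adjusted p = 0.019), and not in the other alternatives (adjusted p = 0.22 to 0.999). That t-test sets the difference against the same spread by which miR-4521 was chosen. The smallest p there therefore belonged to miR-4521 by construction, and the pass restates the choice. With 1 array left out, the log2 changes ranged from 0.60 to 0.68 for miR-4521, from 0.85 to 1.48 for miR-7851-3p and from 0.94 to 1.52 for miR-629-5p, the last without TGF-β array 3 and past adjustment. Pairing the arrays by number, as a replicate block, left the log2 changes at 0.63, 1.11 and 1.18 for miR-4521, miR-7851-3p and miR-629-5p (limma adjusted p = 0.23, 0.15 and 0.15), and no call changed.

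Past adjustment there were 0 miRNAs in limma, 1 by the methods' t-test (miR-4521, with the smallest p there by its choice) and 0 to 1 with arrays left out (miR-629-5p, chosen for that pass). The number of expressed miRNAs, 323, rose to 508 if detection on any 1 array sufficed and was 150 if a mean of 25 was required, by construction, and 323 to 370 with arrays left out. The number higher without overlap, 23 of 323, was 5 with normexp, 1 with own-probe scaling and 12 with the 75th percentile, of the same 323. It was 20 with centred ratios, 20 with quantile normalization, 18 without scaling and 23 without the lowest detected value as a floor. It was 2 of 313 with local background and 1 of 349 in the authors' values. If a mean of 25 was required it was 11 of 150, a share close to the main 7.12%. On chip 1 alone it was 103 of 342, where only 1 TGF-β array is set against the 3 controls, so separation is more frequent by construction. With arrays left out it was 25 to 53 (45 without control array 2, 53 without TGF-β array 1, 50 without TGF-β array 3), as fewer arrays overlap less often by construction. Dim signals limit the precision, since the highest scaled signal of a member was 15.3.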
